A study of Mus musculus with 8 samples.

Results

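Receptor tyrosine kinases such as the ErbB receptors, which bind neuregulins, drive the RAS, RAF, MEK and ERK cascade, and active ERK induces genes whose products then restrain the cascade. Sprouty proteins (Spry) curb the step from receptor to RAS and RAF, Spred proteins bring the RAS inactivator neurofibromin to the membrane, and dual-specificity phosphatases (Dusp) remove the activating phosphates from ERK itself. Because several of these genes are switched on by ERK, their transcripts are widely used as a readout of the pathway in the heart and elsewhere. The data examined here are those of 10 such genes: Spry1, Spry2, Spry4, Spred1, Spred2, Spred3, Dusp4, Dusp5, Dusp6 and Dusp7. They were picked by symbol, with earlier results of these data known. Each matched 1 of the 53465 rows of the deposited table, and all 10 were among the 15388 genes that passed the filter on low counts.

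RNA came from the heart ventricles of mouse embryos on day 15.5 of development. There were 4 wild-type (WT) libraries and 4 whose labels read Nrg-1flox;Cdh5-CreERT2. The second genotype carries a floxed Nrg1 (neuregulin-1) gene and a tamoxifen-inducible Cre recombinase driven from the Cdh5 (VE-cadherin) promoter, which is active in endothelial cells. Each library was made from 1 ventricle per the design text, and neither the tamoxifen schedule nor whether the WT embryos carried a floxed allele or Cre is given in the sources used here. The RNA was that of the whole tissue, so transcripts of cardiomyocytes, endothelium and other cells were pooled, and fewer cells of a type cannot be told apart from less RNA per cell.

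The libraries held 16761763 to 24144272 expected counts, and each pair differed by more than sampling noise (lowest chi-square over its degrees of freedom, 2.93). Markers of cardiomyocytes and endothelium were present in every library. Nrg1, the targeted gene, was at 5.46, 4.64, 4.08 and 5.32 CPM (expected counts scaled to a common library size) in the WT libraries, in the order 1 to 4, and at 6.81, 6.35, 6.14 and 5.36 CPM in those labelled as deleted. It was thus not lower where the label says it was deleted (log2 fold change 0.34, edgeR's FDR 0.311), so those libraries are called Flox-labelled after their label alone, and every direction below follows that label. Gene-level counts also include exons outside the floxed sequence. Xist and Y-linked transcripts were both present in 7 of the 8 libraries, and WT library 4 had 0.19 CPM of Xist. This is at odds with 1 ventricle per library, so whether a library held RNA of 1 embryo is not known and n = 4 counts libraries. Flox-labelled library 4, the shallowest, stood apart from the other 7 on the first principal component of log2 CPM (37.2, against -17.4 to 9.32) and had the lowest Ttn (1597 CPM, against 1835 to 3648). Y-linked expression, summed over Kdm5d, Uty, Ddx3y and Eif2s3y, ran from 69.3 to 171 CPM in WT. In Flox-labelled libraries it ran from 42.9 to 120 CPM. All 4 genes were lower there (log2 fold change -0.85 to -0.63), none at FDR below 0.05 in edgeR. In the order 1 to 4, Xist was at 134, 206, 140 and 0.19 CPM in WT. The Flox-labelled libraries held 327, 282, 263 and 103 CPM of Xist. The part of Y-linked expression in the differences that follow was examined only by fitting the Y-linked sum as a covariate.

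Levels of different genes were compared as CPM per kilobase of annotated exon. Spry2 stood highest, at 20.2 to 24.2 CPM per kilobase over the 8 libraries, followed by Dusp6 at 10.7 to 13.1. Neither range touched that of another of the 10 genes. Dusp7 (7.90 to 9.30), Spry1 (7.62 to 8.73) and Spred1 (7.07 to 8.27) came next, and neighbours among these 3 overlapped. Spred2 (4.99 to 6.64) was clear of both neighbours, Dusp4 (3.43 to 4.54) and Spry4 (3.42 to 4.16) overlapped, and Dusp5 (2.34 to 2.88) and Spred3 (0.40 to 0.54) stood apart at the bottom. Averaged over the libraries, Spry2 made up 65.1% of the length-scaled Sprouty signal, Spred1 54.3% and Spred2 42.4% of the Spred signal, and Dusp6 43.6% and Dusp7 31.8% of the signal of the 4 phosphatases. With the longest annotated transcript as the length, Spry1 and Spred1 exchanged places and the other 8 kept theirs.

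**Figure D1:**
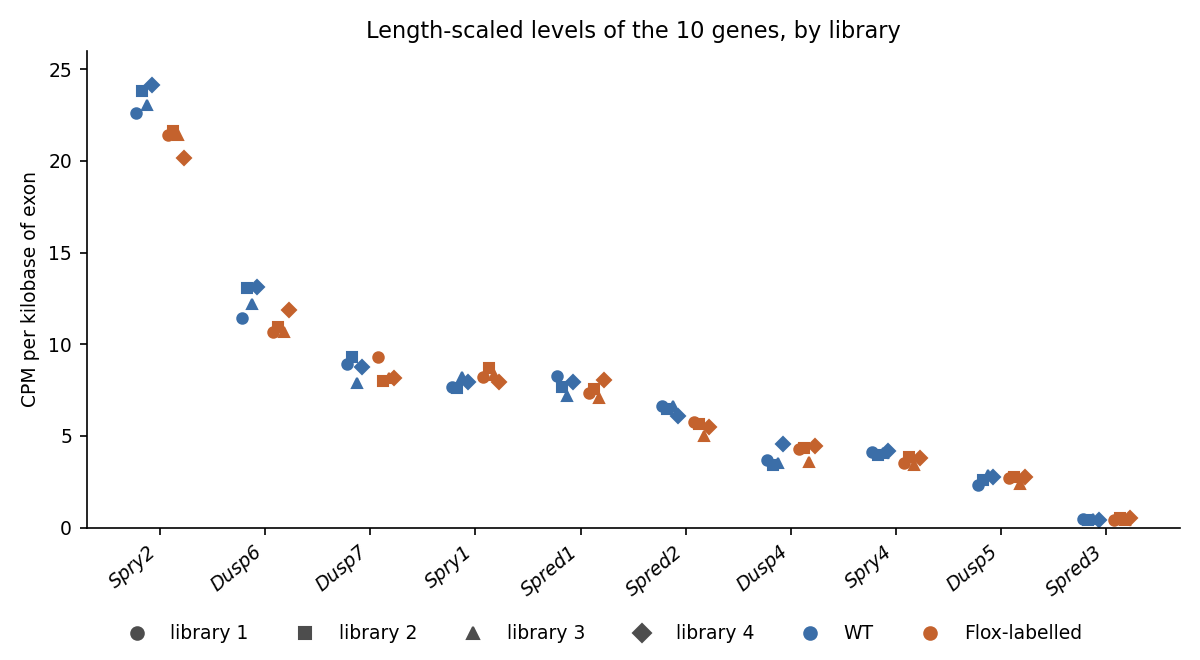
CPM per kilobase of exon (y axis, linear from 0) of the 10 genes, in descending order of their mean, with 1 point per library (blue, WT; orange, Flox-labelled; symbols, library number). Spry2 lies above 20 in every library and Spred3 below 0.6.

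Between the groups, none of the 10 genes passed a false discovery rate (FDR, Benjamini-Hochberg over all tested genes) of 0.05 in edgeR's quasi-likelihood test, against 0.526% of all tested genes (0.214% with the Flox-labelled libraries lower). At an unadjusted p below 0.05 there were 4, namely Spred2, Spry2, Dusp6 and Spry4, and each had the lower mean in Flox-labelled libraries, a direction and p reached by 5.41% of all tested genes. The groups did not overlap for Spred2, Spry2 and Spry4, all lower in the Flox-labelled libraries. Of all tested genes, 6.05% had groups that did not overlap and 3.0% did so with the Flox-labelled libraries lower. The sizes were small, from -0.14 to -0.24 on the log2 scale. The median log2 fold change was -0.05 over the 10 genes and -0.001 over all tested genes. That of the 10 was -0.09 without WT library 3 and -0.03 without Flox-labelled library 3. Of the log2 fold changes, 6 of the 10 were below 0, against 50.6% of all tested genes. The 10 genes were chosen with results of these data known, so these counts are descriptive. DESeq2 called 1 of the 10, Spred2 (FDR 0.0496), and limma voom called 0.

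**Figure D2:**
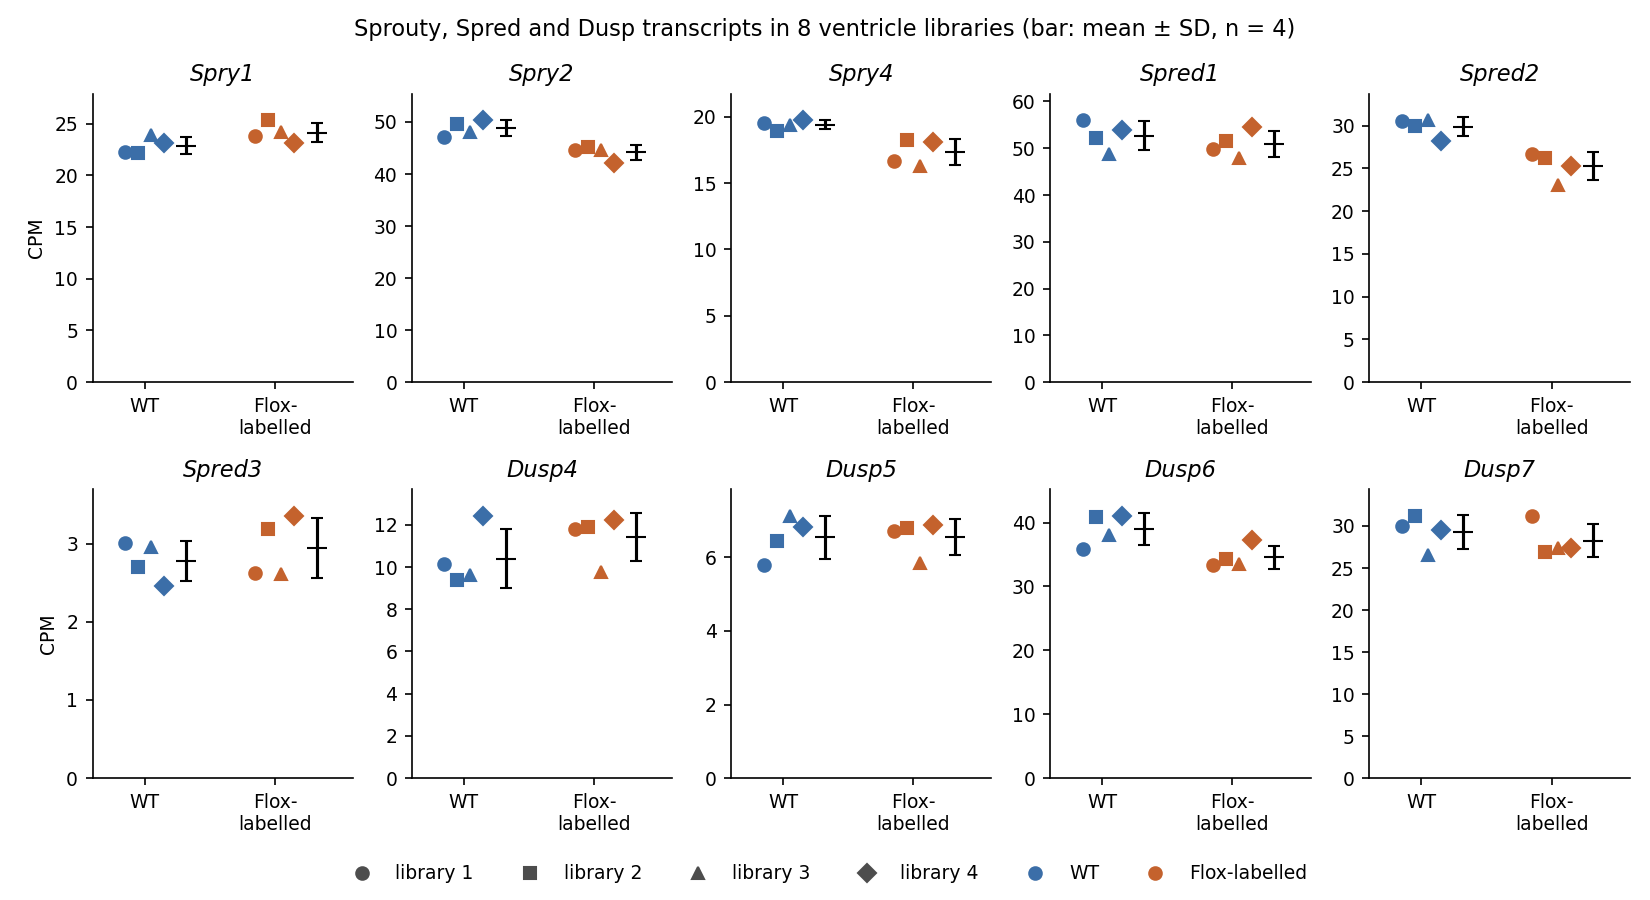
CPM (y axes, linear from 0) of each gene in WT (blue) and Flox-labelled (orange) libraries, with 1 point per library and the mean ± SD (n = 4) beside each group. The groups are separate for Spry2, Spry4 and Spred2 and overlap for the other 7 genes.

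**Figure D3:**
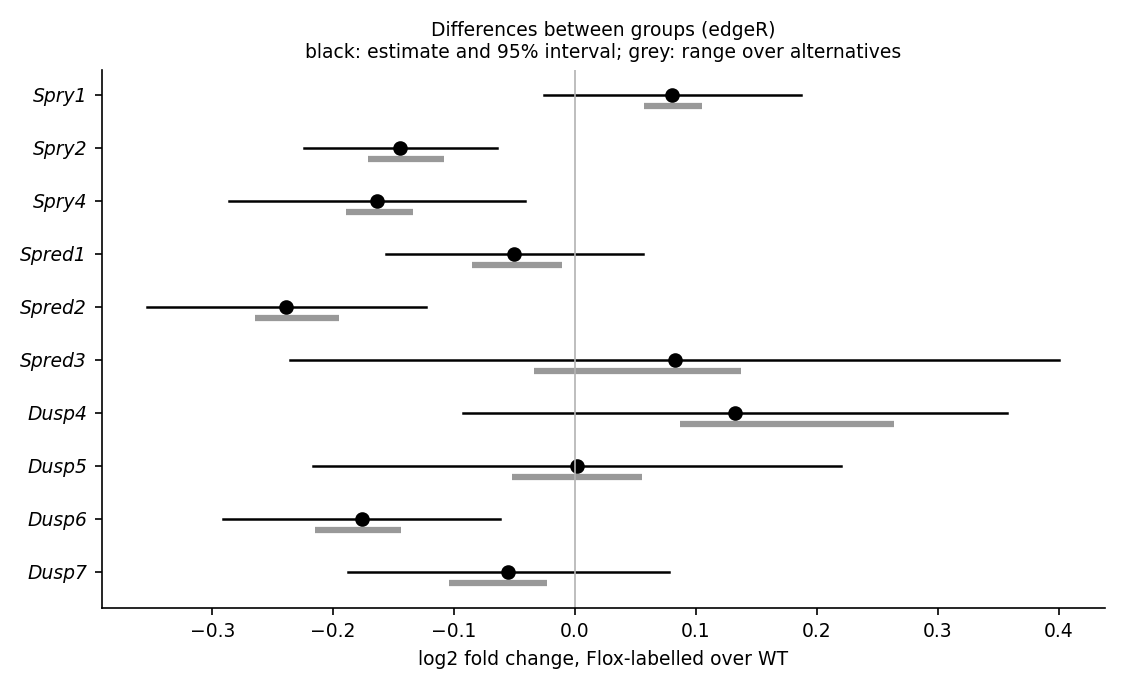
Log2 fold change of Flox-labelled over WT libraries (x axis) for each gene, as the edgeR estimate with its 95% confidence interval (black) and the range of the estimate over the alternative fits (grey). The intervals of Spry2, Spry4, Spred2 and Dusp6 lie below 0, and the other 6 include 0.

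Spry2 (ENSMUSG00000022114, GRCm38 chromosome 14, 105891947 to 105896819, minus strand), an ERK-induced inhibitor of receptor tyrosine kinase signalling, was at 47.1, 49.7, 48.1 and 50.4 CPM in WT. The Flox-labelled libraries held 44.6, 45.2, 44.7 and 42.1 CPM, here and below in the order 1 to 4. Every Flox-labelled value was below every WT value. The means were 48.8 ± 1.49 and 44.1 ± 1.4 CPM (SD, n = 4), giving a log2 fold change of -0.14 (SE 0.037, 95% confidence interval -0.22 to -0.06), which did not pass over all genes (edgeR's FDR 0.128).

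Spry4 (ENSMUSG00000024427, chromosome 18, 38586247 to 38601415, minus strand), the paralogue whose product also acts upstream of RAF, was at 19.5, 18.9, 19.4 and 19.8 CPM in WT. It was at 16.7, 18.2, 16.3 and 18.1 CPM in the Flox-labelled libraries. The groups again did not overlap, but Flox-labelled libraries 2 and 4 came within 1 CPM of the WT minimum. The log2 fold change was -0.16 (SE 0.0564, 95% interval -0.29 to -0.04, edgeR's FDR 0.301), and with the Y-linked sum as a covariate it was -0.14 with an unadjusted p of 0.0793 in edgeR.

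Spry1 (ENSMUSG00000037211, chromosome 3, 37639947 to 37644598, plus strand), a further Sprouty gene, had the higher mean in the Flox-labelled libraries. Its values were 22.2, 22.2, 23.9 and 23.1 CPM in WT against 23.8, 25.4, 24.2 and 23.1 CPM in Flox-labelled libraries, and the groups overlapped. The log2 fold change was 0.08 (SE 0.049, 95% interval -0.03 to 0.19, edgeR's FDR 0.614). Gm42922, on the opposite strand, shares 24.4% of the exonic bases of Spry1 and was at 0.25 to 0.89 CPM. Whether counting used the strand is not stated, and the expected counts of Spry1 were not whole in 100% of libraries. With the counts of both summed, an alternative added after seeing the data, the log2 fold change was 0.06.

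The summed CPM of the Sprouty genes was 91.1 ± 1.84 in WT and 85.6 ± 2.27 in Flox-labelled libraries (SD, n = 4). No p is given for this sum, in which Spry2 is the largest term.

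To ask whether paralogues differed from each other between the groups, the log2 ratio of the counts of each pair was taken within each library, where it does not depend on library scaling. Of the 12 pairs, 3 within Sprouty, 3 within Spred and 6 within the phosphatases, 3 had groups that did not overlap. Each of those 3 holds a gene whose own groups did not overlap (Spry2, Spry4 or Spred2), so the ratios partly restate those differences. Pairs that share a gene are not independent, and the share among other gene pairs was not computed. The Spry1 to Spry2 log2 ratio was -1.08, -1.16, -1.01 and -1.122 in WT and -0.90, -0.83, -0.88 and -0.86 in Flox-labelled libraries. Each Flox-labelled ratio was above each WT ratio. The difference was 0.22 (exact permutation p = 0.0286, two-sided, the smallest that 4 against 4 libraries can give, and 0.114 adjusted over the 12 pairs). The Spry1 to Spry4 log2 ratio was 0.24 ± 0.0487 in WT and 0.48 ± 0.0945 in Flox-labelled libraries (SD, n = 4), a difference of 0.24 (exact permutation p = 0.0286, adjusted 0.114). For Spry2 against Spry4 the difference was 0.02 (exact permutation p = 0.743), with WT ratios of 1.27 to 1.39 and Flox-labelled ratios of 1.21 to 1.46. None of the 12 pairs passed after adjustment, and 3 pairs at the smallest possible p cannot reach 0.05 when 12 are adjusted together.

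**Figure D4:**
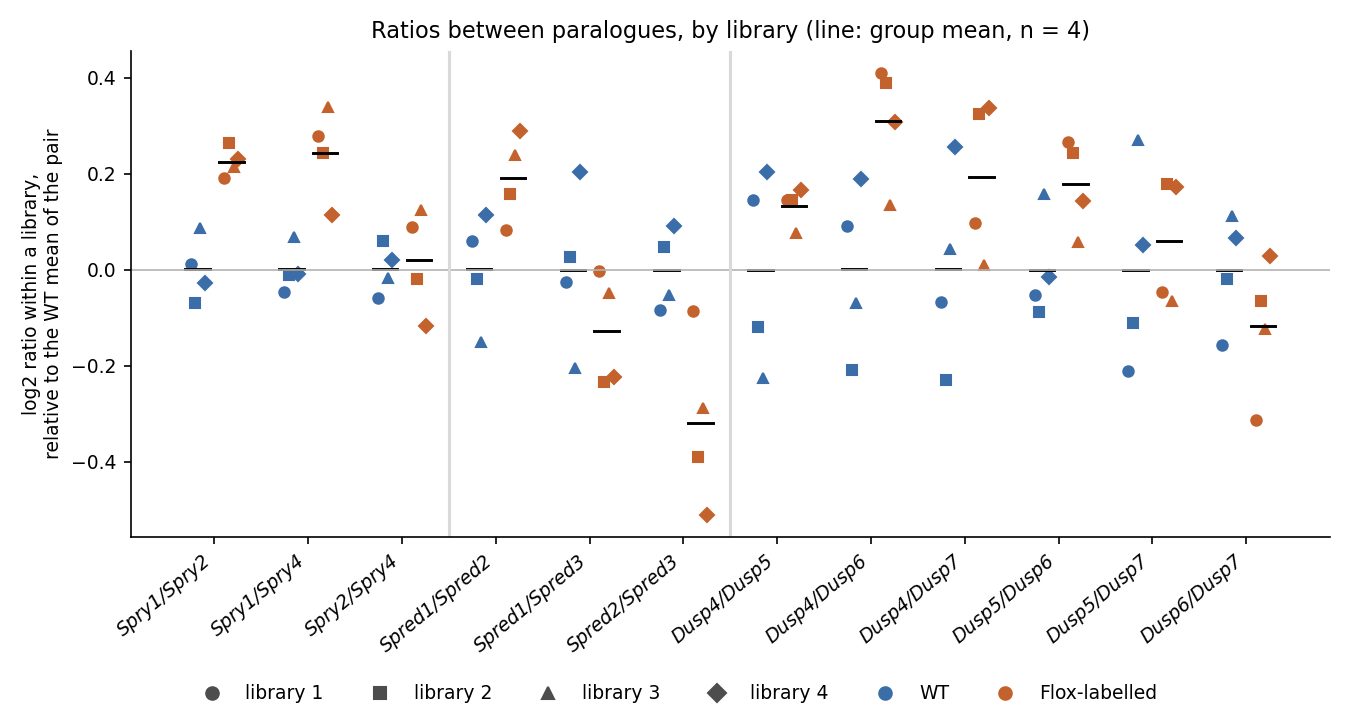
Log2 ratio between paralogues within a library (y axis, with the WT mean of each pair set to 0), for 12 pairs, with 1 point per library (blue, WT; orange, Flox-labelled) and a line at each group mean (n = 4). The groups are separate for Spry1/Spry2, Spry1/Spry4 and Spred2/Spred3.

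Among the Spred genes, Spred2 (ENSMUSG00000045671, chromosome 11, 19924375 to 20024026, plus strand), which recruits neurofibromin to inactivate RAS, had the smallest p of the 10 genes. It was at 30.5, 30.0, 30.7 and 28.2 CPM in WT, and at 26.7, 26.2, 23.0 and 25.3 CPM in Flox-labelled libraries. All Flox-labelled values were below the WT minimum, and Flox-labelled library 3 was the lowest. The means were 29.9 ± 1.12 and 25.3 ± 1.61 CPM (SD, n = 4), giving a log2 fold change of -0.24 (SE 0.0532, 95% interval -0.35 to -0.12, edgeR's FDR 0.0742). The log2 fold change was -0.20 without Flox-labelled library 3 (FDR 0.222) and -0.26 with the Y-linked sum as a covariate (FDR 0.227). FDR was below 0.05 in 3 of 21 alternatives and ranged from 0.0103 to 0.227.

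Spred1 (ENSMUSG00000027351, chromosome 2, 117121374 to 117182279, plus strand), which acts on RAS in the same way and whose human counterpart is mutated in Legius syndrome, was the more abundant paralogue. Its values were 56.1, 52.2, 48.7 and 53.9 CPM in WT against 49.9, 51.5, 48.0 and 54.6 CPM in Flox-labelled libraries, which interleaved. The log2 fold change was -0.05 (SE 0.0492, 95% interval -0.16 to 0.06, edgeR's FDR 0.8). It was -0.02 without WT library 1 or without Flox-labelled library 3, -0.08 without WT library 3 or without Flox-labelled library 4, and -0.01 with the Y-linked sum as a covariate. Spred3 (ENSMUSG00000037239, chromosome 7, 29158829 to 29170411, minus strand), the scarcest of the 10, held 52 to 75.9 expected counts per library. It ranged from 2.46 to 3.01 CPM in WT and from 2.61 to 3.36 CPM in Flox-labelled libraries, with a log2 fold change of 0.08 and a wide 95% interval of -0.24 to 0.40 (edgeR's FDR 0.905), and ran from 0.02 without Flox-labelled library 4 to 0.14 without Flox-labelled library 3. Its exons share 202 bases with Ggn on the opposite strand.

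The Spred2 to Spred3 log2 ratio was 3.33 to 3.51 in WT and 2.91 to 3.33 in Flox-labelled libraries. The groups were barely separate, with Flox-labelled library 1 at 3.333 and WT library 1 at 3.334. The difference was -0.32 (exact permutation p = 0.0286, adjusted 0.114). The Spred1 to Spred2 log2 ratio was 0.67 to 0.93 in WT and 0.90 to 1.11 in Flox-labelled libraries, a difference of 0.19 (exact permutation p = 0.0571, adjusted 0.137). The summed CPM of the Spred genes was 85.4 ± 3.07 in WT and 79.2 ± 4.07 in Flox-labelled libraries (SD, n = 4).

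The tested genes whose log2 CPM followed Spred2 most closely over the 8 libraries were Sh3bgrl3 (Pearson's r 0.985, Spearman's rho 0.881), Smim27 (r 0.984, rho 0.976) and Nol10 (r 0.983, rho 0.929). They were picked as the highest r among all tested genes, so no p is given, and the choice carries the group difference of Spred2 with it. Within-group r was not computed over 4 libraries. Pearson's r was 0.961 to 0.977 without Flox-labelled library 3 and WT library 3. None of the 3 passed FDR 0.05 in edgeR.

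Of the phosphatases, Dusp6 (ENSMUSG00000019960, chromosome 10, 99263231 to 99267489, plus strand) encodes a cytoplasmic, ERK-selective enzyme that is itself induced by ERK. It was at 35.8, 40.9, 38.1 and 41.1 CPM in WT, and at 33.4, 34.2, 33.4 and 37.2 CPM in Flox-labelled libraries. The groups overlapped only through Flox-labelled library 4, which lay above WT library 1. The means were 39.0 ± 2.52 and 34.6 ± 1.8 CPM (SD, n = 4), giving a log2 fold change of -0.18 (SE 0.0529, 95% interval -0.29 to -0.06, edgeR's FDR 0.207). With the Y-linked sum as a covariate the log2 fold change was -0.14 (unadjusted p = 0.0498, FDR 0.508 in edgeR).

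Dusp7 (ENSMUSG00000053716, chromosome 9, 106368632 to 106375724, plus strand), the other cytoplasmic ERK phosphatase of the 10, was at 30.0, 31.2, 26.5 and 29.5 CPM in WT against 31.1, 26.9, 27.4 and 27.4 CPM in Flox-labelled libraries. One Flox-labelled library, the first, was near the top of the WT range, and the others lay near its bottom. The log2 fold change was -0.06 (SE 0.0611, 95% interval -0.19 to 0.08, edgeR's FDR 0.826), and ran from -0.02 without WT library 2 to -0.10 without Flox-labelled library 1.

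Dusp4 and Dusp5 encode phosphatases of the nucleus, and Dusp5 is selective for ERK. Dusp4 (ENSMUSG00000031530, chromosome 8, 34807297 to 34819894, plus strand) was at 10.1, 9.41, 9.65 and 12.4 CPM in WT against 11.8, 11.9, 9.75 and 12.2 CPM in Flox-labelled libraries. WT library 4, which held the highest Y-linked sum, had the highest Dusp4 of all 8 libraries. The log2 fold change was 0.13 (SE 0.104, 95% interval -0.09 to 0.36, edgeR's FDR 0.722), 0.23 without WT library 4 (FDR 0.474) and 0.26 with the Y-linked sum as a covariate (FDR 0.511). Without Flox-labelled library 3 it was 0.20, and without WT library 2 it was 0.09. Dusp5 (ENSMUSG00000034765, chromosome 19, 53529109 to 53542431, plus strand) was at 5.78, 6.45, 7.13 and 6.81 CPM in WT against 6.72, 6.80, 5.83 and 6.89 CPM in Flox-labelled libraries. Its groups covered almost the same range, and its log2 fold change was 0.002 (SE 0.101, 95% interval -0.22 to 0.22, edgeR's FDR 0.998). AC137853.2, which is antisense in GENCODE, shares 22.1% of the exonic bases of Dusp5 and has no row of its own in the deposited table.

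Within the phosphatases, the largest difference in a log2 ratio was that of Dusp4 to Dusp6, at -1.91 ± 0.175 in WT and -1.60 ± 0.125 in Flox-labelled libraries (SD, n = 4). The groups overlapped, and the difference was 0.31 (exact permutation p = 0.0571, adjusted 0.137). For Dusp5 to Dusp6 it was 0.18 (exact permutation p = 0.0857, adjusted 0.171), and for Dusp6 to Dusp7, the cytoplasmic pair, -0.12 (exact permutation p = 0.257, adjusted 0.343). The groups also overlapped for Dusp4 to Dusp7 (0.19), Dusp4 to Dusp5 (0.13), Dusp5 to Dusp7 (0.06) and, among the Spred genes, Spred1 to Spred3 (-0.13), with exact permutation p from 0.171 to 0.657. The summed CPM of the 4 phosphatase genes was 85.2 ± 4.3 in WT and 80.8 ± 3.36 in Flox-labelled libraries (SD, n = 4).

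The promoters of Spry1 and Spry2 are shown as the pair whose ratio had non-overlapping groups by the widest margin among the Sprouty genes, and those of Dusp5 and Dusp6 as the phosphatase gene that held a motif and the one with the smallest p. RefSeq's table on GRCm38.p6 held 8 of the 10 genes. Each run ends at the base before the annotated start of the gene and is printed 5′ to 3′ on the strand of the gene, with matches to a CArG box, the site bound by serum response factor, in capitals. The motifs searched on both strands were CCGGAAG (a site of ETS factors), TGACGTCA (the cyclic AMP response element), TGANTCA (the AP-1 site), CACGTG (the E-box) and the CArG box.
Spry1 (chr3:37639697-37639946, plus strand): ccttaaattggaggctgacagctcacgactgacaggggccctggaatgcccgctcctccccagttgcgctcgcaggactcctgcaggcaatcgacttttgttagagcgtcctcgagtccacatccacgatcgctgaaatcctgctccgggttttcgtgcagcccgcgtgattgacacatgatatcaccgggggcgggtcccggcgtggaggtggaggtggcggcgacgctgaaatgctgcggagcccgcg
Spry2 (chr14:105896820-105897069, minus strand): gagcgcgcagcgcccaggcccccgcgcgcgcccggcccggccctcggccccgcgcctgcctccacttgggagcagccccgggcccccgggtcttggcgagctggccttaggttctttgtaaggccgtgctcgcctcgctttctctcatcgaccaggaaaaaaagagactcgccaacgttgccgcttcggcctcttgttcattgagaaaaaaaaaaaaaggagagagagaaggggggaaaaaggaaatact
Dusp5 (chr19:53528895-53529108, plus strand): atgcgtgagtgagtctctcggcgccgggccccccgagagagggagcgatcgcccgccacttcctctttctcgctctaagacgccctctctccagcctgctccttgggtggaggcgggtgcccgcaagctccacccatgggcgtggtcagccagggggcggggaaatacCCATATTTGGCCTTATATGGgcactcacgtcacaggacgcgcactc
Dusp6 (chr10:99262981-99263230, plus strand): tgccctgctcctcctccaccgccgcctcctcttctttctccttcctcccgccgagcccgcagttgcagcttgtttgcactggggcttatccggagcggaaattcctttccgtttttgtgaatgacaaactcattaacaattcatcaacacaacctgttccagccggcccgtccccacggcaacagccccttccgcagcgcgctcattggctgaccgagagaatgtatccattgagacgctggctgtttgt

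The window of Dusp5 held 2 adjacent CArG boxes, and no other gene of the 8 held any of the 5 motifs in the 250 bases before its RefSeq start. Of the 32851 promoter windows of that length, 1.47% held a CArG box, 6.91% CCGGAAG, 6.75% TGANTCA, 6.02% CACGTG and 1.55% TGACGTCA. RefSeq and GENCODE starts can differ, and the RefSeq windows of 7 of the 8 genes held bases before the GENCODE start. For Dusp5 214 of the 250 bases lay before it, and for Spred2 183. A match describes the letters alone, and these windows say nothing of binding.

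Single libraries did not rank alike over the 10 genes. Flox-labelled library 3 was the lowest of its group for 6 of them (Spry4, Spred1, Spred2, Spred3, Dusp4 and Dusp5). Flox-labelled library 4 was the highest of its group for 5 (Spred1, Spred3, Dusp4, Dusp5 and Dusp6), and WT library 4 was the highest of all 8 for 4 (Spry2, Spry4, Dusp4 and Dusp6). In Flox-labelled library 4, Spry1 and Spry2 were the lowest of their group. Without WT library 4 the log2 fold changes of Spry2 and Dusp6 were -0.13 and -0.15 in edgeR, and without both libraries numbered 4, an alternative added after seeing the data, -0.11 and -0.19.

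Other genes of the pathway were then counted by their place in it. Of 20 receptors and ligands, 13 were below 0, the median log2 fold change was -0.04 and none passed FDR 0.05, with 4 at an unadjusted p below 0.05 in edgeR, against 10.5% of all tested genes. That median was -0.08 without Flox-labelled library 4, -0.01 without Flox-labelled library 1 and 0.004 with the Y-linked sum as a covariate. Those 4 were Nrg1 itself, which was above 0, and Kdr, Tie1 and Pdgfrb, which were below it. The endothelial receptors Kdr (VEGF receptor) and Tie1 (angiopoietin co-receptor) had the smallest p. Kdr was at 180 ± 7.39 CPM in WT against 160 ± 4.37 CPM in Flox-labelled libraries (SD, n = 4), giving a log2 fold change of -0.17 (edgeR's FDR 0.0693). Tie1 was at 160 ± 2.16 and 143 ± 8.91 CPM (SD, n = 4), also -0.17 (edgeR's FDR 0.121). Both genes passed in DESeq2 (FDR 0.00237 and 0.0199), without a filter and without Flox-labelled library 4 (edgeR's FDR 0.0498 and 0.0455), and Kdr also by the likelihood ratio test. With the Y-linked sum as a covariate, Kdr was at -0.12 (edgeR's FDR 0.368) and Tie1 at -0.10 (edgeR's FDR 0.478). The neuregulin receptors in heart muscle, Erbb2 (0.02) and Erbb4 (-0.02), were near 0 on the log2 scale. Their 95% intervals were -0.05 to 0.09 and -0.12 to 0.07.

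Of the 20 adaptors, RAS and RAF proteins and kinases that connect receptors to ERK, 9 were below 0. The median was 0.009 (0.002 to 0.02 over the alternatives), and none passed in edgeR, DESeq2 or limma voom. An unadjusted p below 0.05 in edgeR was reached by 4, against 10.5% of all tested genes. Those 4 were Rps6ka1 and Mapk3 (-0.09), which were below 0, and Gab1 and Map2k1 (0.08), which were above it. Rps6ka1, an ERK-activated kinase, had a log2 fold change of -0.20 (edgeR's FDR 0.167). Gab1, a docking adaptor of ErbB and MET receptors, was at 154 ± 3.16 CPM in WT against 163 ± 3.88 CPM in Flox-labelled libraries (SD, n = 4), giving a log2 fold change of 0.09 (edgeR's FDR 0.324). For Rps6ka1 and Gab1 the groups did not overlap, and the expected counts of Gab1 were not whole in 100% of libraries.

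Of 16 other ERK-induced transcripts, 1 passed FDR 0.05, the ETS factor Etv1, which fell by 0.32 on the log2 scale (SE 0.0574, edgeR's FDR 0.0373). Etv1 was at 40.4, 39.9, 41.0 and 35.2 CPM in WT, and at 29.6, 32.0, 30.2 and 33.9 CPM in Flox-labelled libraries. The groups did not overlap, and its expected counts were not whole in 100% of libraries. Its call was lost with the replicate number as a block (FDR 0.0577), with the Y-linked sum as a covariate (FDR 0.145) and without any 1 of 6 libraries: WT libraries 1, 2 and 3 and Flox-labelled libraries 1, 2 and 3 (FDR 0.0723 to 0.139). Its log2 fold change stayed between -0.29 and -0.33 in these fits. Phlda1, an ERK-responsive gene with a pleckstrin homology-like domain, was at 17.5 ± 0.695 CPM in WT against 14.7 ± 1.2 CPM in Flox-labelled libraries (SD, n = 4), giving a log2 fold change of -0.25 (edgeR's FDR 0.148). The immediate early gene Egr1 was at 0.01 with a 95% interval of -0.17 to 0.19. Fos, also an immediate early gene, was at -0.37 (95% interval -0.74 to -0.004, unadjusted p = 0.0477 and FDR 0.467 in edgeR). Of the 16, 3 had an unadjusted p below 0.05 in edgeR, namely Etv1, Phlda1 and Fos. Each was below 0, a direction and p reached by 5.41% of all tested genes. The median of the 16 was -0.05, with 9 below 0, and it was 0.02 without WT library 2 and down to -0.11 in the other alternatives.

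Of 18 other brakes on receptors, RAS and MAP kinases, Spry3 did not pass the filter (at most 10 expected counts per library), and 7 of the 17 tested were below 0. Their median was 0.01 (-0.009 without Flox-labelled library 3, up to 0.04 in the other alternatives) and none passed FDR 0.05 in edgeR, DESeq2 or limma voom. An unadjusted p below 0.05 in edgeR was reached by 2 of the 17, against 10.5% of all tested genes. Those 2 were phosphatase genes outside the 10. Dusp8, whose product prefers JNK and p38, was at 35.2 ± 0.882 CPM in WT against 39.4 ± 2.6 CPM in Flox-labelled libraries (SD, n = 4), giving a log2 fold change of 0.16 (edgeR's FDR 0.219). Dusp2, a nuclear phosphatase, was at 4.88 ± 0.501 and 4.04 ± 0.519 CPM (SD, n = 4), giving a log2 fold change of -0.28 (edgeR's FDR 0.467).

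**Figure D5:**
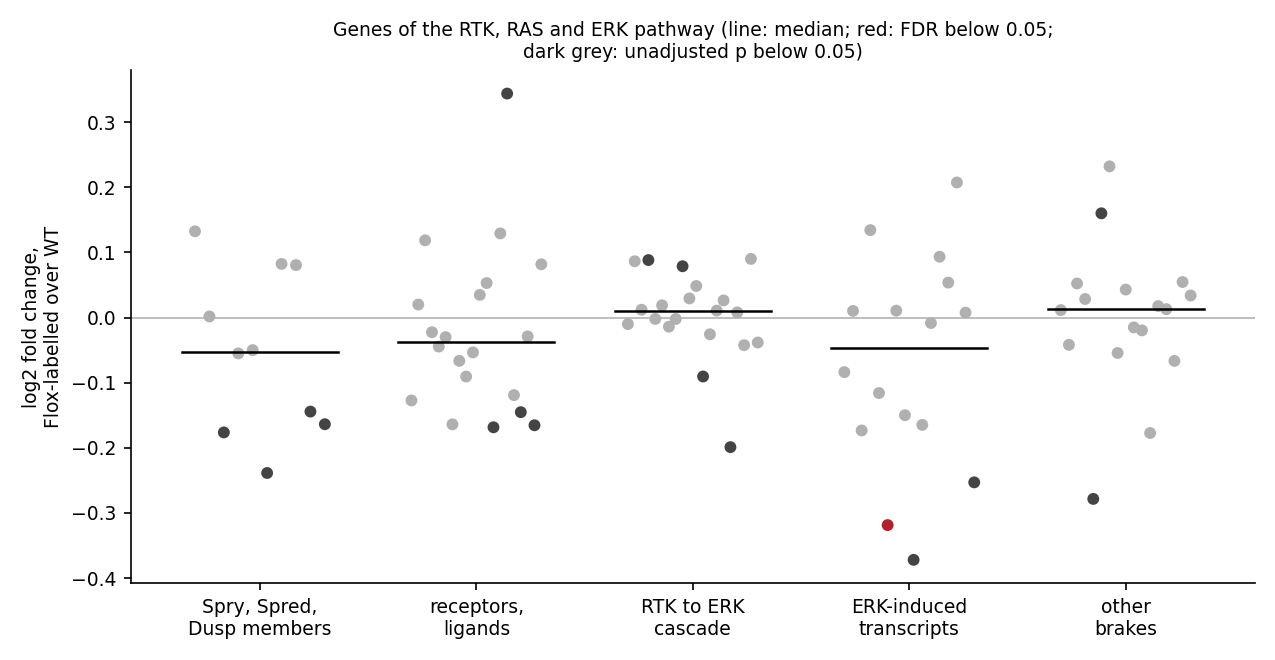
Log2 fold change of Flox-labelled over WT libraries (y axis) for the 10 genes and for 4 lists of other pathway genes, with 1 point per tested gene and a line at each median. Etv1 is the only point at FDR below 0.05 (red), and dark grey points have an unadjusted p below 0.05.

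Levels of cell type markers were read beside these values. The sum of 8 endothelial markers was 1291 to 1338 CPM in WT against 1209 to 1312 CPM in Flox-labelled libraries, with 6 of 8 below 0 on the log2 scale. Kdr and Tie1 are among these 8, as are Esam (-0.15, edgeR's FDR 0.0584) and Pecam1 (-0.09, edgeR's FDR 0.357). The other markers were Tek (-0.03), Eng (-0.005), Cdh5 (0.008) and Emcn (0.18, edgeR's FDR 0.358). The sum of 5 mural markers was 358 to 403 CPM and 341 to 361 CPM in the same order, with 5 of 5 below 0. The sums of 6 fibroblast markers (5254 to 6218 and 5076 to 6167 CPM) and of 6 cardiomyocyte markers (27190 to 31770 and 27300 to 32450 CPM) overlapped widely, with 4 of 6 below 0 and 2 of 6 below 0 in that order. Atrial markers, 5 in all, summed to 1554 to 1773 and 1551 to 1710 CPM, with 5 of 5 below 0 and a median log2 fold change of -0.13, near the -0.14 of the mural markers. Such sums mainly follow the most abundant genes of a list. Those were Myh7 in the cardiomyocyte list (means of 17340 CPM in WT and 18130 CPM in Flox-labelled libraries), Col3a1 in the fibroblast list (1927 and 1880 CPM) and Myl4 in the atrial list (1323 and 1311 CPM). Macrophage markers summed to 46.5 to 64.3 and 53.5 to 75.3 CPM, and erythroid markers to 1273 to 2763 and 1653 to 2748 CPM. Hepatocyte markers stayed below 2 CPM and the sum of 3 Schwann and nerve markers below 5 CPM in every library, and no marker was at 0 in all libraries. Of all these markers 1 passed FDR 0.05, the cardiomyocyte factor Nkx2-5, which rose from 96.9 ± 3.66 CPM in WT to 112 ± 2.16 CPM in Flox-labelled libraries (SD, n = 4; log2 fold change 0.21, edgeR's FDR 0.0194). Myh6, a myosin heavy chain of the same list, was at 2330 ± 187 and 2041 ± 86.5 CPM (SD, n = 4; log2 fold change -0.19, edgeR's FDR 0.134). The part of endothelial, mural, atrial or other cell content in the values of the 10 genes was not tested.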

How the data were processed

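The authors deposited expected counts per Ensembl gene, 1 column per library. Per the labels, reads came from directional polyadenylated libraries and were handled with cutadapt and RSEM 1.3.1 on GRCm38. RSEM divides a read that fits several genes between them. The aligner and the strand setting are not given in the sources used here. The table held 53465 genes, 18.1% of its values were not whole, and library totals of 16761763 to 24144272 limit the precision of scarce genes.

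Counts were rounded, filtered with filterByExpr by group (15388 genes) and given TMM scaling factors. The group difference was tested two-sided in R 4.3.3 by the quasi-likelihood functions glmQLFit and glmQLFTest of edgeR 4.0.16, and p was adjusted by Benjamini and Hochberg across the 15388 genes, with calls at FDR 0.05. CPM values are unrounded counts over TMM-scaled library sizes. Symbols, positions and lengths came from GENCODE M21, also on GRCm38, which matched 53360 identifiers. Standard errors were worked out from the F statistic. Paralogue log2 ratios used a prior count of 0.5 and exact permutation tests, with Benjamini-Hochberg adjustment over the 12 pairs. The fit was tested on simulated data. Nothing in the labels says that libraries came from separate litters, so p-values measure the spread between these libraries.

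The 10 genes, the pathway lists and the marker lists were chosen with earlier results of these data known. The genes named were the 10, Nrg1, in each pathway list the genes at FDR below 0.05 and the 2 with the smallest p, and the 3 genes most correlated with the member of smallest p. Erbb2, Erbb4, Egr1, Fos, Pdgfrb, Mapk3, Map2k1, Ttn, Myh6, Myh7, Myl4, Col3a1 and Nkx2-5 were added after their values were seen. So were the endothelial markers other than Kdr and Tie1. The alternatives were scaling by RLE, upper quartile or total, the unfiltered table, a filter that keeps 4 or more libraries at 1 CPM or above, edgeR's likelihood ratio test, voom in limma 3.58.1, DESeq2 1.42.0, each library left out, the replicate number as a block, the Y-linked sum as a covariate and a lowess correction (span 0.3) for GC content and length. Figures were drawn with matplotlib 3.10.9.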

Additional observations from a re-analysis of the deposited data

Results flagged for a closer look

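The CPM of the 10 genes, of Nrg1 and of 8 pathway genes (Etv1, Phlda1, Rps6ka1, Gab1, Dusp8, Dusp2, Kdr and Tie1), with the 12 paralogue ratios, form 62 groups of 4, and in 2 of them 1 library stood far from the rest, by Dixon's criterion. Chance alone would give about 3.1. The first was Dusp7, with 31.14 CPM in Flox-labelled library 1 while the rest of that group lay between 26.93 and 27.43 CPM. Without that library its log2 fold change was -0.10 (edgeR's FDR 0.67) in place of -0.06. The second was Dusp5, with 5.83 CPM in Flox-labelled library 3 while the rest lay between 6.72 and 6.89 CPM, and without that library its log2 fold change was 0.06 (edgeR's FDR 0.941).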

How the results depend on the processing

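Of the 10 genes, 1 (Spred2) was called without a filter, by the likelihood ratio test and by DESeq2, and 0 under each other alternative. Of the pathway genes outside the 10, 1 was called (Etv1), against 3 without a filter and 3 by DESeq2 (Etv1, Kdr and Tie1), 2 by the likelihood ratio test (Etv1 and Kdr), 0 with the replicate number as a block, 0 with the Y-linked covariate and 0 to 3 when 1 library was left out, with 3 reached without Flox-labelled library 4. Over all genes, 81 calls became 338 without a filter, 242 by the likelihood ratio test, 189 by DESeq2, 16 with the Y-linked covariate and 11 to 142 without 1 library. The cause of these shifts was not tested, and fits on fewer libraries have fewer samples by construction.

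Nrg1 was higher in each of its alternatives (0.27 to 0.45). The 4 genes at an unadjusted p below 0.05 kept their direction in each of theirs: Spred2 (-0.27 to -0.20), Spry2 (-0.17 to -0.11), Dusp6 (-0.22 to -0.14) and Spry4 (-0.19 to -0.13). Dusp5, at 0.0017, changed sign with upper quartile scaling (-0.0024), total scaling (-0.00015), no filter (-0.0012), limma voom (-0.00034) and without both libraries numbered 4 (-0.0011), and ran from -0.052 to 0.055 without 1 library. Without both libraries numbered 4, Spred3 was at -0.034. Of the 12 paralogue pairs, 3 had an exact permutation p below 0.05, and 1 to 3 when a library was left out. Without any 1 WT library, p was 0.0571 for Spry1/Spry4 and Spred2/Spred3, whose differences stayed at 0.23 to 0.27 and -0.35 to -0.29. An exact p can rise with unequal groups while they still do not overlap. Signs changed for Spry2/Spry4 (-0.016 to 0.064) and Dusp5/Dusp7 (-0.011 to 0.15). In the order of levels, 2 genes changed place with the longest transcript as the length.

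Same-numbered libraries were checked for pairing by correlating, over genes, how far each lay from its group mean, which gave r of 0.0899, 0.0482, 0.0498 and 0.119, against -0.0983 to 0.0334 for differently numbered pairs. The main fit left the number out because these were not all above 0.1. Each library nonetheless correlated best with its own number, so this cut does not show that the libraries were unpaired. The exact permutation tests of the paralogue ratios regrouped the libraries freely, so their p-values also leave the number out. The fit with a block for the number called 93 genes, among them 59 of the 81, and 0 of the 10 genes.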
